A study of Macaca fascicularis with 12 samples.

Results

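ADAM proteins, short for a disintegrin and metalloproteinase, are mostly membrane-anchored zinc proteases that cut the outer parts of other membrane proteins from the cell surface, a process called shedding. ADAM10 and ADAM17 are the best known of them and release growth factors, cytokines and their receptors, cell adhesion molecules and Notch. Tissue inhibitors of metalloproteinases restrain them, and integrins bind their disintegrin domains. In the artery wall, family members are made by smooth muscle cells, endothelium and the leukocytes that enter a plaque.

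The 10 genes described here are ADAMDEC1, ADAM33, ADAM8, ADAM9, ADAM10, ADAM12, ADAM15, ADAM17, ADAM19 and ADAM28, out of 18160 genes with a single symbol on the array. They were chosen by gene family, with ADAMDEC1 and ADAM33 selected on their measured levels across the plaque groups, where they stood among the largest differences in opposite directions. Differences of the members between plaque groups, and their slopes with plaque area, therefore describe the choice. No p-value is printed for them. Which of them passed a threshold, and under which settings, is stated but not read as a result. The genes were read by 11 probes, 2 of them for ADAM10 and 1 for each other gene. A further probe named both DCST1 and ADAM15 and was not used. All 11 probes had a value on every array, and none fell to the floor set for low intensities.

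Transcripts were measured in the left iliac artery of 12 female cynomolgus monkeys (Macaca fascicularis) older than 20 years, all of which had eaten a high fat diet for 8 years and had lived for 4 years without ovaries. The submitters sorted the arteries by plaque area. The small group had 4 arteries of at most 0.113 mm2, 2 of them with no plaque, the medium group 5 arteries between 0.3 and 0.542 mm2, and the large group 3 between 0.61 and 1.003 mm2. Every animal gave 1 artery and 1 single-colour CodeLink array of human probes. The study therefore holds no animal on a normal diet or with ovaries, and each biopsy was homogenized as 1 piece, so that a plaque and the wall around it were measured together. Because the probes were designed for human transcripts, a difference is taken between animals on 1 probe and never between probes. Where the brightness of a probe is ranked among all probes, the rank describes the signal and not the amount of a transcript. Levels are log2 intensities, on which 0 lies close to the median probe of an array.

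Of 15 contractile smooth muscle markers, listed with the tissue label in mind, 12 were measured. Their probes ranked from brighter than 25.1% of all probes, for ACTG2, to brighter than 99.9%, for MYH11, with CNN1 at 45.6% and ACTA2 at 99.8%. Such ranks describe the signal and do not establish the tissue. Array medians lay between 1.004 and 1.008 intensity units, no 2 arrays were identical, and the lowest correlation between any 2 arrays across probes was 0.918. Probes of 1 array are not independent replicates. Small replicate 4 and medium replicate 5 carry animal identity numbers that lie apart from the other 10, and the members' group differences are given with and without them.

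ADAMDEC1, a secreted family member known from human macrophages and dendritic cells and lacking most of the disintegrin domain, lay near the level of the median probe in arteries with small plaques and above it in all others. In the small group its log2 intensity was -0.20, -0.34, -0.34 and 0.90. In the medium group it was 6.45, 5.28, 5.20, 5.14 and 2.23, and in the large group 5.54, 4.14 and 5.00. The small group did not overlap either of the others, whereas the medium and large groups overlapped fully. Medium replicate 5, at 2.23, stood well below the other 4 medium arteries but above every artery of the small group.

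The mean difference of ADAMDEC1 was 4.85 ± 0.67 log2 units for medium minus small (standard error, SE, of the fit, n = 5 and 4), a ratio of 28.9. For large minus small it was 4.88 ± 0.77 (n = 3 and 4). Among the 53877 probes tested it ranked 4 from the top in the first comparison and 6 in the second. Large minus medium was 0.03 ± 0.73, with a 95% interval from -1.57 to 1.62, so that a further change of up to about that size in either direction lay within the error. Without small replicate 4 and medium replicate 5 the differences were 5.81 for medium minus small, 5.18 for large minus small and -0.63 for large minus medium.

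ADAM33, a membrane protease known in humans from smooth muscle cells and fibroblasts and as an asthma susceptibility gene, took the opposite course. Its log2 intensity was 3.12, 2.08, 1.68 and 4.08 in the small group. It was 0.70, -0.03, -0.29, -1.38 and 0.37 in the medium group, and 1.98, 1.45 and 1.08 in the large group. All 5 medium arteries lay below every small and every large artery. The large group lay between and overlapped the small one.

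For ADAM33, medium minus small was -2.86 ± 0.50 log2 units, the fifth value from the bottom among all probes, and equal to a level 7.28 times lower in medium plaques. Large minus small was -1.23 ± 0.57, with a 95% interval from -2.48 to 0.01. Large minus medium was 1.63 ± 0.55, with an interval from 0.44 to 2.82. This course is the one ADAM33 was chosen for. Without small replicate 4 and medium replicate 5 these 3 differences were -2.54, -0.79 and 1.76.

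**Figure D1:**
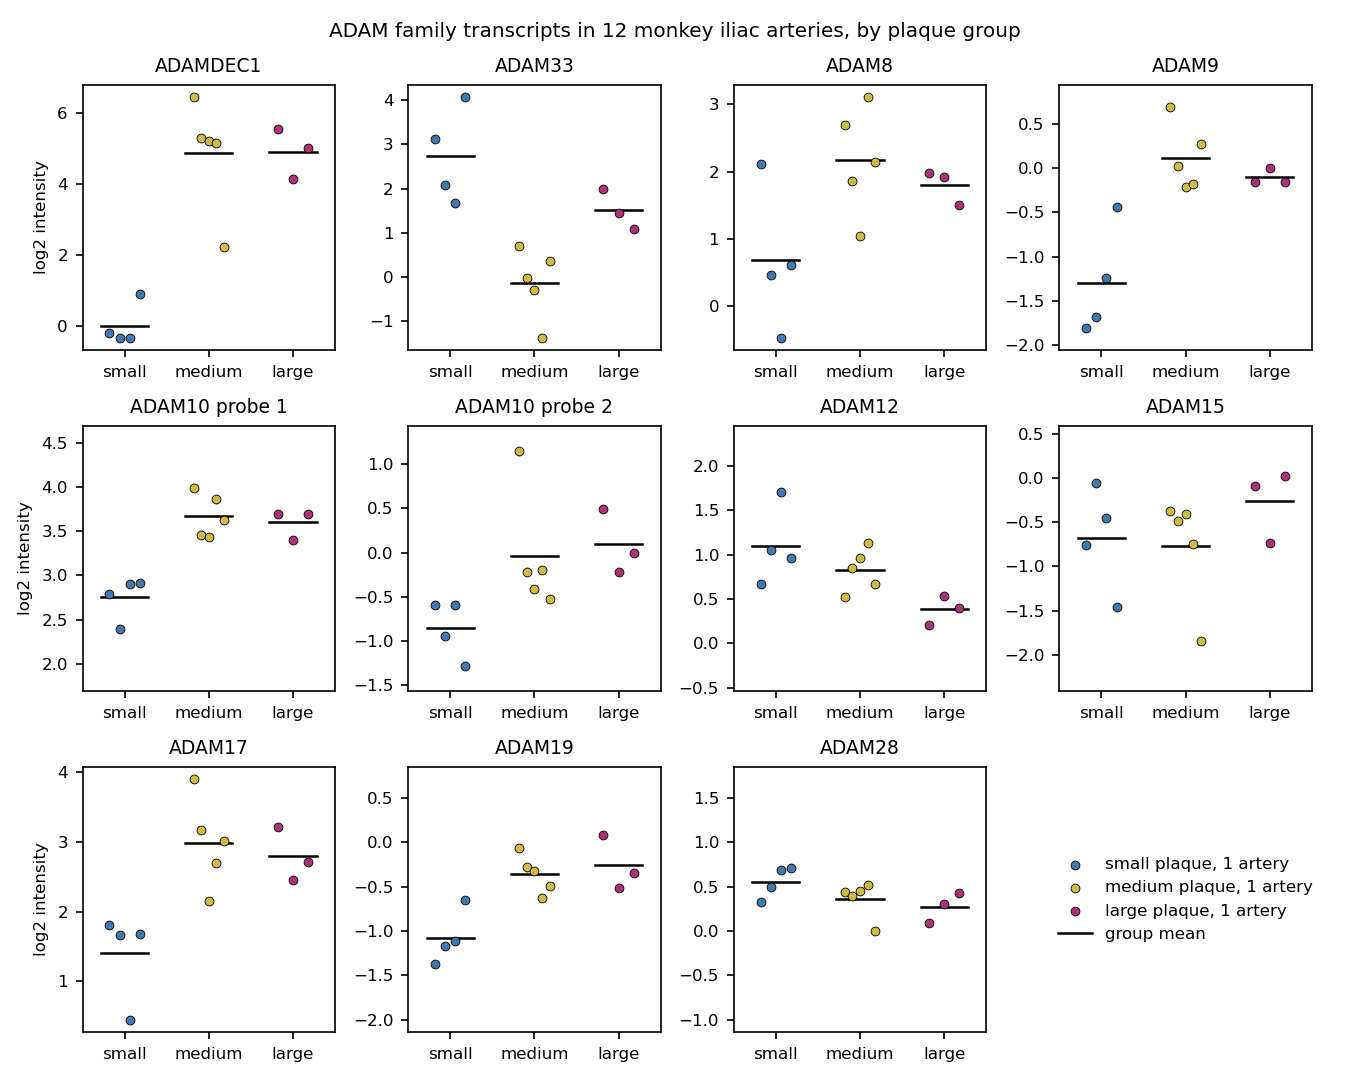
Log2 intensity (vertical axis) of each ADAM family probe in every artery, by plaque group (horizontal axis: small, n = 4; medium, n = 5; large, n = 3); each point is 1 artery, the line is the group mean, and every panel spans at least 3 log2 units. ADAMDEC1 has means of 0.01, 4.86 and 4.89 from small to large, and ADAM33 has means of 2.74, -0.13 and 1.51.

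The sheddases ADAM10 and ADAM17 stood higher in arteries with larger plaques, by less than ADAMDEC1. ADAM17, also called TNF-alpha converting enzyme, measured 1.81, 1.67, 0.44 and 1.68 in the small group. It measured 3.91, 3.17, 2.15, 2.70 and 3.01 in the medium group and 3.22, 2.46 and 2.71 in the large group. The small arteries lay below all others. Medium minus small was 1.59 ± 0.36 log2 units and large minus small 1.39 ± 0.41. Without small replicate 4 and medium replicate 5 they were 1.67 and 1.49.

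ADAM10, which cuts Notch and many adhesion molecules, had a bright and a dim probe. The bright probe, above 88.8% of all probes, measured 2.80, 2.39, 2.90 and 2.92 in the small group, and it measured 3.99, 3.45, 3.43, 3.86 and 3.63 in the medium group and 3.70, 3.40 and 3.70 in the large group. The small arteries again lay below all others, with narrow groups: the standard deviation (SD) of each was 0.25, 0.25 and 0.17 from small to large. Medium minus small was 0.92 ± 0.18 and large minus small 0.85 ± 0.20. The dim probe differed by 0.81 ± 0.32 and 0.95 ± 0.37 in the same comparisons. Both probes had the small group lowest, but the bright one had medium and the dim one large on top. Without small replicate 4 and medium replicate 5 the differences were 0.99 and 0.90 on the bright probe and 0.79 and 0.80 on the dim one. On the dim probe medium replicate 1 reached 1.15, while the other medium arteries lay between -0.53 and -0.20.

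ADAM9, ADAM19 and ADAM8 also had positive differences. ADAM9, a widely expressed protease, ranged from -1.81 to -0.44 in the small group, from -0.22 to 0.69 in the medium group and from -0.16 to 0.00 in the large group. The small group overlapped neither of the others. Medium minus small was 1.41 ± 0.28 and large minus small 1.19 ± 0.32. Without small replicate 4 and medium replicate 5 they were 1.66 and 1.47. ADAM19, or meltrin beta, known for its part in heart development in mice, ranged from -1.38 to -0.65 in small, from -0.63 to -0.07 in medium and from -0.51 to 0.09 in large plaques. Its groups did not overlap against small, though small replicate 4 at -0.65 and medium replicate 4 at -0.63 nearly met. Medium minus small was 0.72 ± 0.19 and large minus small 0.82 ± 0.22, and 0.89 and 0.96 without both of the animals numbered apart.

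ADAM8, a protease of granulocytes and monocytes, spread widely. It measured 2.12, 0.46, -0.47 and 0.62 in the small group, 2.70, 1.86, 1.04, 3.11 and 2.15 in the medium group and 1.98, 1.92 and 1.50 in the large group. Small replicate 1 lay above all 3 large arteries and above 2 of the 5 medium ones. Medium minus small was 1.49 ± 0.49 and large minus small 1.12 ± 0.56, and 1.48 and 1.10 without both animals.

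ADAM12, ADAM15 and ADAM28 did not share this direction. ADAM12, or meltrin alpha, a protease of growing mesenchymal tissue, ranged from 0.66 to 1.71 in small, from 0.53 to 1.13 in medium and from 0.21 to 0.54 in large plaques. Large minus small was -0.71 ± 0.24 with groups that did not overlap, and medium minus small was -0.27 ± 0.21. Without the animals numbered apart these were -0.76 and -0.27. ADAM15, which in humans carries an integrin-binding motif in its disintegrin domain, had intervals that held 0 in both comparisons, from -0.85 to 0.66 for medium minus small and from -0.44 to 1.28 for large minus small. Its estimates were -0.09 and 0.42, and -0.08 and 0.16 without both animals.

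ADAM28, known from human lymphocytes, varied little. Its values ran from 0.33 to 0.71 in small, from -0.0007 to 0.52 in medium and from 0.09 to 0.43 in large plaques. Medium minus small was -0.20 ± 0.16 and large minus small -0.28 ± 0.18, and without both animals they were -0.05 and -0.23. In the annotation of the cynomolgus assembly T2T-MFA8v1.1, ADAM28 lies next to ADAMDEC1 with no coding gene between them. The 2 neighbours thus had differences of -0.20 and 4.85 in the same medium and small arteries.

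**Figure D2:**
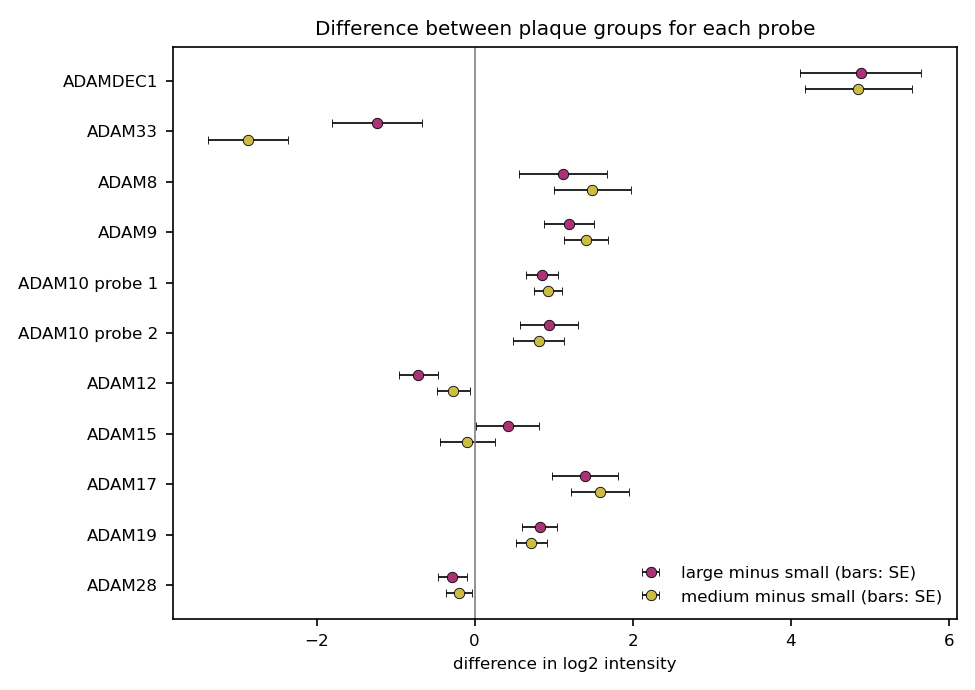
Difference in log2 intensity (horizontal axis) for each ADAM family probe (vertical axis), large minus small and medium minus small; points are the estimates and bars the SE of the fit over 12 arteries. ADAMDEC1 stands alone at 4.88 and 4.85, ADAM33 is the most negative at -2.86 for medium minus small, and ADAM12 and ADAM28 are below 0 in both.

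In limma's test across all probes, with p-values adjusted by Benjamini-Hochberg and a threshold of 0.05, 5 of the 11 probes were past the threshold for medium against small. They were ADAMDEC1, ADAM9, ADAM17 and the bright probe of ADAM10 as higher, and ADAM33 as lower. The same test called 3.14% of all probes, 1.97% as higher and 1.17% as lower. For large against small, ADAMDEC1 was the 1 probe of 11 past the threshold, where 1.15% of all probes were called. The same test called 0.948% of all probes as higher and 0.197% as lower. The call of ADAMDEC1 was lost without large replicate 1, where the difference was 4.56, or large replicate 3, where it was 4.83. For medium against small the call of ADAM17 was lost under 12 of 22 alternative settings, while those of ADAMDEC1 and ADAM33 held under all 22. ADAMDEC1 and ADAM33 were chosen for this contrast in the same arrays, so nothing is read from their calls holding. The calls of ADAM9 and of the bright ADAM10 probe were each lost without small replicate 2, that of ADAM9 also with the replicate number as a block, and that of ADAM10 also without small replicate 4 and medium replicate 5 together. For large against small, ADAM9 passed the threshold without those 2 animals, or without small replicate 4 alone. The bright ADAM10 probe passed there among the brighter probes, with a variance trend and with array weights. In medium against small, ADAM8 passed without small replicate 1 and ADAM19 without small replicate 4. Groups did not overlap for 7 of the 11 probes in medium against small, 6 higher and ADAM33 lower, beside 8.28% of all probes (3.94% higher and 4.34% lower). They did not overlap for 7 in large against small, 6 higher and ADAM12 lower, beside 14.5% (5.99% higher and 8.52% lower). Because these contrasts chose the members, nothing is read from these counts.

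The median difference of the 11 probes was 0.81 log2 units for medium minus small and 0.85 for large minus small, beside medians of -0.09 and -0.10 over all probes. For large minus medium it was -0.08, beside -0.02. ADAM10 enters with both of its probes, and the members were chosen with these differences known. Nothing about the family as a whole is therefore read from these medians. The 10 measured genes of a list of other ADAM genes had medians of -0.09 for medium minus small and -0.28 for large minus small. Of these 10, 4 were at the floor on at least 1 array. Both comparisons against small use the same 4 small arteries, so their likeness is in part shared.

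Of the 11 probes, 10 overlapped between large and medium plaques, the exception being ADAM33, which was higher in large plaques, and 5.47% of all probes did not overlap, 2.53% with large plaques higher and 2.93% with large plaques lower. Limma called 0 of the 11 probes and 0% of all probes. An unadjusted limma p under 0.05 was found for 1 of the 11, ADAM33, and for 2713 of the 53877 tested. Because ADAM33 was chosen on its levels in these groups, nothing is read from its p. ADAM12 had the next largest difference against its error, -0.44 ± 0.23. ADAM9, ADAM17 and ADAM8 differed by -0.22 ± 0.30, -0.19 ± 0.40 and -0.37 ± 0.53.

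Plaque area was also examined as a continuous measure. Over all 12 arteries the slope of ADAMDEC1 was 5.90 ± 1.45 log2 units per mm2 and that of ADAM33 was -1.74 ± 1.17. Without small replicate 4 and medium replicate 5 they were 6.05 and -0.79, and without large replicate 1 the slope of ADAM33 was -3.18. Limma called 0 of the 11 slopes, and 0.583% of all probes, 0.483% with a positive and 0.1% with a negative slope. An unadjusted p under 0.05 was found for 8 of the 11 and for 8568 of all probes, and nothing is read from this, since area was among the values that chose the members. Under other settings limma called some of these slopes. Those of ADAMDEC1 and the bright ADAM10 probe passed with brighter probes only (1121 of all called) or the square root of area (1586 called). Without medium replicate 1 (746 called), those of ADAMDEC1 and the dim ADAM10 probe passed. Within the 8 arteries of the medium and large groups, where the step from small plaques plays no part, ADAMDEC1 had a slope of 0.17 ± 1.77. ADAM33 had 2.93 ± 1.16, opposite in sign to its slope over all 12, and ADAM12 had -0.94 ± 0.39. The other 7 genes had slopes from -0.45 to 0.95 on all 8 of their probes. Without medium replicate 5 the slopes of ADAMDEC1, ADAM33 and ADAM12 were -0.35, 2.95 and -0.96. Here again limma called 0 of the 11 probes and 0% of all probes. An unadjusted limma p under 0.05 was found for 2 of the 11, ADAM33 and ADAM12, and for 2962 of the 53877 tested. Nothing is read from this either, since the same values chose the members.

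**Figure D3:**
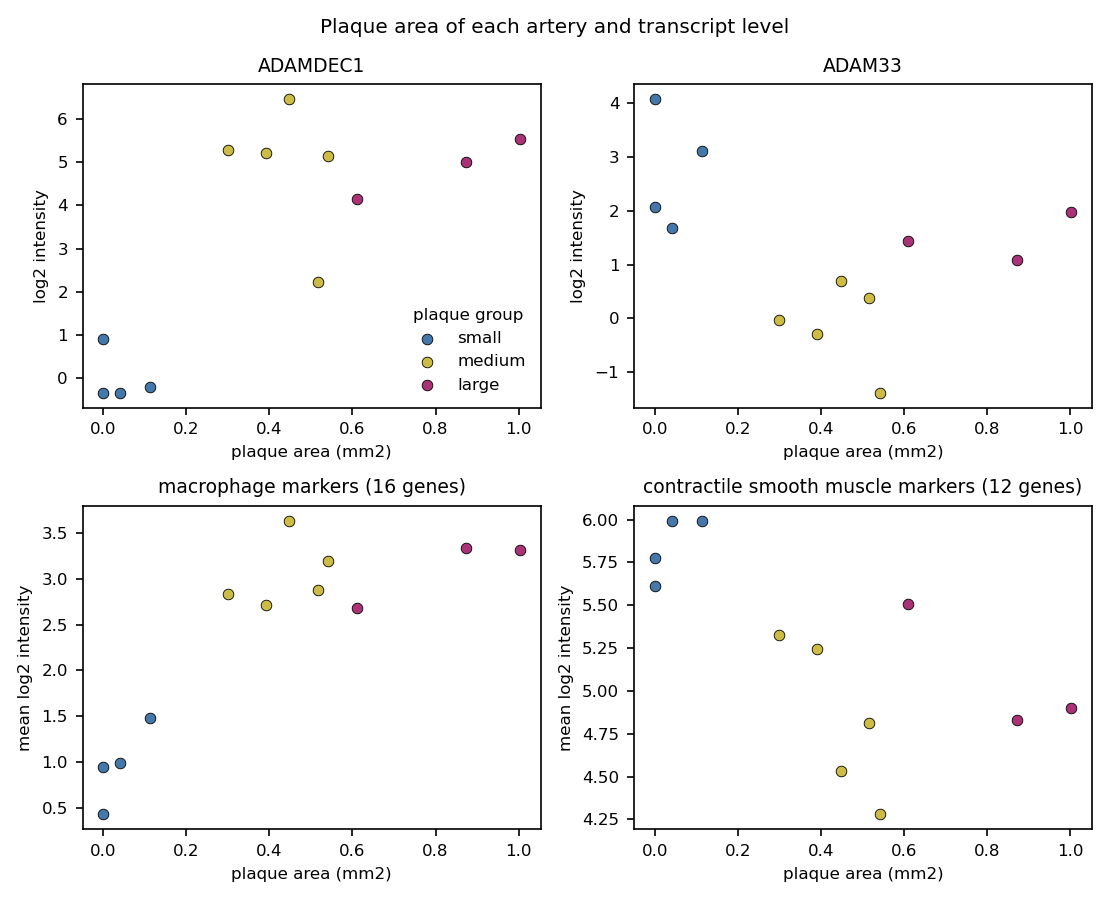
Plaque area in mm2 (horizontal axes) against the log2 intensity of ADAMDEC1 and ADAM33 (top) and against the mean log2 intensity of the macrophage and contractile smooth muscle marker lists (bottom); each point is 1 artery, coloured by plaque group. ADAMDEC1 steps up between 0.113 and 0.3 mm2, and ADAM33 is lowest, at -1.38, in the artery with 0.542 mm2.

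Markers of other cells moved beside these genes. Of 16 measured macrophage markers 10 rose in medium against small plaques and 9 in large against small, by limma's adjusted p, and none was called as lower. In each comparison 13 of the 16 had a positive difference. CD68, MARCO and C1QB had negative ones, of -0.44, -0.66 and -0.29 for medium minus small. For large minus small they were -0.66, -0.90 and -0.11. Of all named genes, 3.6% were called as higher and 1.6% as lower in medium plaques, and 1.91% and 0.254% in large plaques. Each gene counted in a list is represented by its brightest probe. The mean log2 intensity of that list lay between 2.71 and 3.63 in the medium arteries and between 2.68 and 3.34 in the large ones, against 0.43 to 1.48 in the small ones. LAPTM5 was at the floor on 1 array and ITGAM on 2. In a whole artery, more cells of a type and more RNA per cell cannot be told apart. ADAMDEC1 stepped up beside this list, but medium replicate 5, its lowest medium artery, had a list mean of 2.88, the third highest of the 5. The part of macrophage content in the level of ADAMDEC1 was not tested.

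The contractile smooth muscle list, beside ADAM33, held 12 measured genes, of which 2, SMTN and MYLK, fell in medium against small and 1, MYLK, in large against small, each on the brighter of 2 probes while the other was not called. The same 1.6% and 0.254% of all named genes called as lower stand beside these counts. Differences were positive for 1 of the 12 in medium minus small and for 0 in large minus small. Their medians were -1.15 and -0.84, beside -0.03 and -0.05 over all named genes. In large minus medium 9 of the 12 were positive, with a median of 0.21 beside -0.02, and none was called. The mean of the list lay between 4.28 and 5.33 in medium and between 4.83 and 5.51 in large arteries, against 5.61 to 5.99 in small ones. ACTG2 was at the floor on 1 array. Medium replicate 4 had the lowest list mean and the lowest ADAM33, whereas small replicate 4 had the highest ADAM33 and the lowest list mean of its group. The part of smooth muscle content in the level of ADAM33 was not tested. None of the 6 measured B and plasma cell markers, 7 T cell markers, 9 endothelial markers or 8 fibroblast markers was called on its brightest probe in either comparison against small. Another probe of the endothelial gene PECAM1 was called at 1.21 in medium and 1.25 in large plaques, and another of the fibroblast gene DPT at -1.35 in medium plaques.

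Some arteries stood high or low for many family members at once. Medium replicate 1 was the highest of the 5 medium arteries on 8 of the 11 probes, beside 17.8% of all probes. It also had the highest mean of the macrophage list. Large replicate 1 was the highest of its group on 7 of the 11, beside 30.7% of all probes, and large replicate 2 the lowest on 6, beside 31.7%. Small replicate 4 was the highest on 6, beside 18.8%. Probes of 1 array share that array, so these counts describe arteries and do not test them.

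The genes most like ADAMDEC1 over the 12 arteries, by Pearson correlation r of log2 intensity among 21403 probes, were ASAH1 at 0.98, NONO at 0.97, UHMK1 at 0.97, DEF8 at 0.96 and CTSB at 0.96. The median over the probes compared was -0.05. ASAH1 encodes a lysosomal ceramidase, CTSB the lysosomal protease cathepsin B and NONO a nuclear RNA-binding protein. ASAH1 had means of 0.24, 4.02 and 3.84 from small to large plaques. On deviations from the group means, which also entered the r that chose these 5, r lay between 0.81 and 0.89, beside a median of -0.01 over the probes compared. UHMK1, DEF8 and CTSB were each represented by 1 of several probes, which for UHMK1 and DEF8 was not the brightest.

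For ADAM33 the most similar genes were PPP1R9A at 0.95, INHBA at 0.92, GP9 at 0.91, FAM210A at 0.90 and ABRA at 0.90, with a median of -0.01 over the probes compared. INHBA encodes a subunit of activins, GP9 a platelet glycoprotein and ABRA an actin-binding protein of striated muscle. INHBA had means of 7.12, 6.19 and 6.58 and ABRA -0.60, -2.35 and -1.07 from small to large. PPP1R9A had means of -1.64, -2.96 and -2.19, so its medium arteries lay close to the floor, which is -3.17 on this scale. The choice by r fixes much of such a likeness. On deviations from the group means r was between 0.72 and 0.84, beside a median of -0.04 over the probes compared. PPP1R9A and GP9 were represented by probes other than their brightest.

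The other ADAM genes listed gave no calls. Of 11 listed genes 10 were measured, and limma called 0 of them in either comparison against small. The median difference was -0.09 for medium minus small and -0.28 for large minus small. ADAM21 and ADAM11, the genes of smallest p, differed by -0.53 ± 0.23 and -0.44 ± 0.18 for medium minus small, with adjusted limma p-values of 0.243 and 0.216. ADAM21 was at the floor on 3 arrays, ADAM32 on 4, and ADAM18 and ADAM22 on 1 each.

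Inhibitors, activators and partners of ADAM proteins went both ways. Of 22 measured genes, 2 rose and 3 fell in medium against small plaques, and 1 rose in large against small, where limma called 3.6% and 1.91% of all named genes as higher and 1.6% and 0.254% as lower. The list held genes of the TspanC8 group of tetraspanins, membrane proteins that bring ADAM10 to the surface. TSPAN5 rose by 2.10 ± 0.31 in medium and by 2.29 ± 0.36 in large plaques, and TSPAN33 by 0.98 ± 0.23 in medium plaques. TSPAN14 fell by 1.25 ± 0.27 in medium plaques. The other probe of TSPAN5 differed by -0.59 and that of TSPAN14 by 0.60 for medium minus small, neither past the threshold. TSPAN5 was at the floor on 1 array and averaged -2.37 in small plaques. Its call in large plaques was lost without large replicate 1 or 3, with the floor at the 1st percentile and with only the groups compared in the fit. That of TSPAN14 in medium plaques was lost under 8 of 22 settings. DLG1, a scaffold protein counted as not called, had another probe called at -1.11 in medium plaques.

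TIMP3, the inhibitor of metalloproteinases best known to block ADAM17, fell by 0.70 ± 0.17 in medium plaques on the brighter of 2 probes, with -0.05 on the other. The related inhibitors TIMP1, TIMP2 and TIMP4 had positive differences for medium minus small, of 0.71 ± 0.22, 1.46 ± 0.44 and 0.15 ± 0.15, none past the threshold. RHBDF1, or iRhom1, which carries ADAM17 to the cell surface, fell by 1.12 ± 0.26, while its relative RHBDF2 differed by -0.22 ± 0.17. The calls of TIMP3, RHBDF1 and TSPAN33 in medium against small were lost under 15, 12 and 11 of 22 settings. FURIN, the protease that removes the inhibitory prodomain of many ADAM proteins, differed by 0.15 ± 0.19 in medium and 0.70 ± 0.22 in large plaques, neither past the threshold.

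Among proteins that ADAM proteases shed, EGF family ligands and receptors gave 0 calls of 11 measured, with a median of -0.35 for medium minus small and -0.52 for large minus small. ERBB4 differed by -1.53 ± 0.44 on the brightest of 5 probes and the growth factor HBEGF by -1.03 ± 0.39 for medium minus small, with adjusted limma p-values of 0.084 and 0.18. The other 4 probes of ERBB4 lay between -0.37 and 0.12, none called. Of 29 other measured substrates, 3 rose in medium plaques, CD163 by 2.68 ± 0.36, CSF1R by 2.17 ± 0.37 and TREM2 by 2.19 ± 0.53. In large plaques 2 rose, CD163 by 2.37 ± 0.41 and TREM2 by 2.91 ± 0.60. The shares of all named genes called as higher were 3.6% and 1.91%. Another probe of CD44, an adhesion receptor, was called at 0.87 in medium and 0.95 in large plaques, and another of CSF1R at 2.90 and 2.58. CD163 is a haemoglobin scavenger receptor, CSF1R the receptor of macrophage colony-stimulating factor and TREM2 a lipid receptor, all 3 of them macrophage proteins. CD163 and CSF1R are also in the macrophage list. The calls of TREM2 were lost under 16 of 22 settings for medium and 14 of 22 for large plaques, and that of CSF1R in medium plaques without both of the animals numbered apart. The call of CD163 in large plaques was lost without those animals, without large replicate 1 or 3, and with only the groups compared in the fit. TNF itself, the first known substrate of ADAM17, differed by -0.18 ± 0.16 and -0.07 ± 0.18, and the adhesion molecules ICAM1 and VCAM1 by -0.09 ± 0.15 and 0.18 ± 0.20 for medium minus small. None of these passed.

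Of 9 integrin subunits, ITGA4, the alpha 4 subunit of leukocyte integrins, rose by 1.88 ± 0.26 in medium and by 1.58 ± 0.29 in large plaques, on the brighter of 2 probes, with -0.73 and -0.77 on the other, not called. Its call in large plaques was lost under 6 of 22 settings, among them the removal of large replicate 1 or 3. ITGA9, the alpha 9 subunit, fell by 0.95 ± 0.18 in medium plaques on the brighter of 2 probes, with -1.16 on the other, not called. Its call was lost with the replicate number as a block and without small replicate 4 and medium replicate 5. ITGAV and ITGB1 differed by 0.33 ± 0.22 and 0.43 ± 0.57 there and did not pass.

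**Figure D4:**
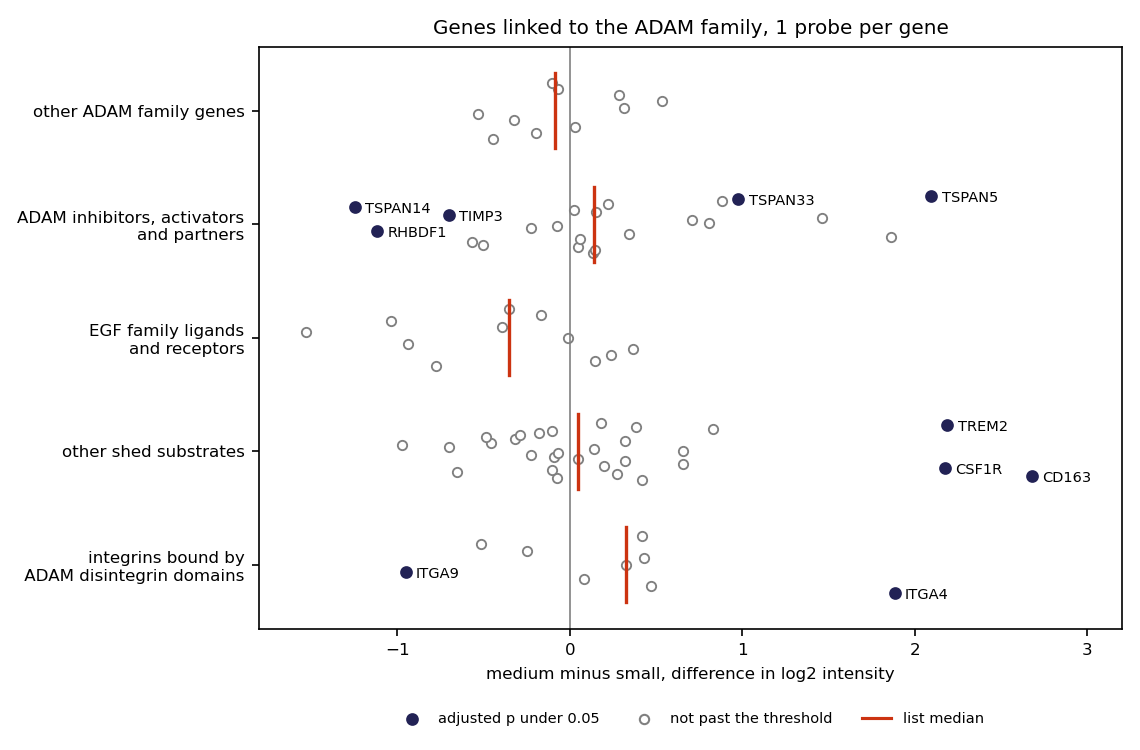
Difference in log2 intensity, medium minus small (horizontal axis), for genes of 5 lists linked to the ADAM family (vertical axis), 1 probe per gene; filled points are past an adjusted limma p of 0.05, open points are not, and red lines are list medians. TSPAN5, TREM2, CSF1R, CD163, TSPAN33 and ITGA4 lie above 0, and TSPAN14, RHBDF1, TIMP3 and ITGA9 below.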

How the data were processed

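The deposited table holds linear probe intensities with a median near 1 on every array and with negative values, as a background subtraction and a scaling by the authors would leave. How either was done is not given in the sources used here. Of 54359 probes 479 were empty, and 53877 had 2 or more values in every group and were tested. A floor of 0.111, which is the 5th percentile among positive intensities, replaced all lower values (5.45% of the table) before log2 was taken. No further normalization was applied.

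Each probe was fitted with limma 3.58.1 in R 4.3.3 (lmFit with 3 group means over 12 arrays, or plaque area as a slope, then eBayes). P-values were two-sided and adjusted by Benjamini-Hochberg over all probes. Genes came from the platform's annotation, through probes with 1 symbol (23267 of the tested probes, beside 900 with several and 29710 unnamed). For the lists, a gene was represented by its brightest complete probe. Named were all members, the 5 probes of other genes most correlated with ADAMDEC1 and with ADAM33, and from each list the called genes or the 2 of smallest p. Outside this rule TNF, ICAM1, VCAM1, FURIN, RHBDF2, ITGAV, ITGB1, DLG1, CD44, PECAM1 and DPT were named after their values were seen. So were CD68, MARCO, C1QB, TIMP1, TIMP2 and TIMP4. NRD1 and IGJ were matched by their current symbols, NRDC and JCHAIN. The members and lists were chosen with earlier results of these data known. The alternatives tried were quantile normalization, other floors, fewer probes, other variance models, other sets of arteries, the square root of area and a replicate block. The fits were tested on simulated data. The replicates are separate animals, and their number limits the precision.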

Additional observations from a re-analysis of the deposited data

Results flagged for a closer look

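Among the 22 sets of values examined, 11 probes in the small and in the medium group, 5 held an artery far from the others by Dixon's criterion. Chance meets it in about 1 of 20 independent sets of normal values. These sets share their arrays and are not independent, so the count of 5 is not read against that rate. ADAMDEC1 in small replicate 4 measured 0.90, while the other small arteries lay between -0.34 and -0.20. ADAM17 in small replicate 3 measured 0.44, against 1.67 to 1.81 in the others. The dim probe of ADAM10 in medium replicate 1 measured 1.15, against -0.53 to -0.20. Medium replicate 5 was low for ADAM15, at -1.85 against -0.74 to -0.38, and for ADAM28, at -0.0007 against 0.39 to 0.52. Of these 5 values, 3 come from the animals numbered apart from the rest, small replicate 4 and medium replicate 5. The cause was not tested.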

How the results depend on the processing

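Of 238 recomputed member values in each of the 3 group comparisons, none moved by more than the spread between replicates, and no called member changed sign. Of 227 slopes over all arteries 1 moved by more than its SE, that of ADAM33 without large replicate 1, and of 183 within medium and large 3 did (ADAM33 and ADAM12 on the square root of area, ADAM19 without large replicate 1). Counts over all probes moved more. For medium against small, 1693 probes were called, 866 with the replicate number as a block, 773 without small replicate 4 and medium replicate 5 together, and 847 to 1568 with 1 animal left out, the count falling over 1.5 times without small replicate 2 or medium replicate 1, 4 or 5. For large against small, 617 were called, 1397 among the brighter probes, 1161 with a variance trend, 1254 with array weights, 379 from the 2 groups alone, 316 without both animals and 112 to 1216 with 1 animal left out, lowest without large replicate 3 or 1 or small replicate 2 and highest without small replicate 1. For large against medium, 0 were called, 1 after quantile normalization, 3 with array weights, 4 from the 2 groups alone and 0 to 3 with 1 animal left out. For the slope with plaque area, 314 were called, 509 and 174 with the floor at the 10th and 1st percentile, 1121 among brighter probes, 777 with a variance trend, 1586 on the square root of area, 0 without both animals and 0 to 746 with 1 animal left out, with 1 or none without small replicate 2 or 4 or large replicate 3. ADAM11, not called and at -0.06 for large minus small, ranged from -0.132 to 0.0319 with 1 animal left out, positive without small replicate 1 (0.0292) and without large replicate 3. The causes were not tested. The replicate numbers mark different animals, and deviations of same-numbered arteries correlated between -0.16 and 0.22. Whether same-numbered arteries share anything else was not tested. Under the replicate block the call of ADAM9 in medium against small was lost.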
